A study of Mus musculus with 35 samples.

Results

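Polycomb repressive complex 2 (PRC2) was described here through the RNA of 9 of its genes in mouse striatum: Ezh1, Ezh2, Eed, Suz12, Jarid2, Phf1, Mtf2, Phf19 and Aebp2. They were taken by gene symbol from a count table of 39109 rows, though the members were chosen with earlier results of these data known. All 9 had at least 6 counts in each of the 35 libraries. The study bred HttQ111 knock-in mice, which carry an expanded CAG repeat in the endogenous huntingtin gene and model Huntington's disease, with mice that lose Hdac2, a class I histone deacetylase, in striatal medium spiny neurons (MSNs). RNA-seq was made from whole striatum at 21.71 to 23 weeks of age. Among Hdac2 WT mice 8 were Htt+/+ and 7 HttQ111/+, and among Hdac2 KO mice 9 were Htt+/+ and 11 HttQ111/+. Hdac2 KO mice were homozygous for a floxed Hdac2 allele and carried the D9-Cre transgene, in which a genomic fragment of Ppp1r1b, the gene of the MSN protein DARPP-32, drives Cre from young adulthood. No Hdac2 WT library in the table was labelled as carrying Cre, so loss of Hdac2 and presence of D9-Cre cannot be told apart in these libraries. HttQ111/+ mice had repeat lengths of 110 to 144 against 7 in Htt+/+ mice. The HttQ111 and D9-Cre lines were on C57BL/6J, and the floxed Hdac2 line, of mixed C57BL/6/129SeEv origin, had been bred to C57BL/6J without a full backcross.

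PRC2 is the enzyme complex that places methyl groups on lysine 27 of histone H3, the mark that keeps developmental genes silent in differentiated cells. EZH1 and EZH2 are its alternative catalytic subunits, and neither is active without EED, which reads the mark and stimulates the enzyme, and SUZ12, the scaffold. EZH2 is known as the form of dividing cells and EZH1 as the form that persists in postmitotic cells such as neurons. Accessory subunits split the complex into a PRC2.1 form, with PHF1, MTF2 or PHF19 (Polycomb-like proteins that bind CpG-rich DNA), and a PRC2.2 form, with JARID2 and AEBP2. In adult MSNs, PRC2 is known to keep genes of other cell types and of development silent.

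The start regions of 4 members are shown: the catalytic pair Ezh1 and Ezh2, the scaffold Suz12, and Phf19, the member with a higher level in Hdac2 KO libraries. Aebp2, which had a lower level in Hdac2 KO libraries, is not shown. Whether letters in these windows relate to the levels was not tested. Each sequence is the RefSeq window (GRCm38.p6) of 250 bases before to 50 bases after a gene's start, read 5′ to 3′ on the gene's strand. They lie at chr11:101226414-101226713 (Ezh1, minus strand), chr6:47594981-47595280 (Ezh2, minus strand), chr11:79992856-79993155 (Suz12, plus strand) and chr2:34913927-34914226 (Phf19, minus strand). Capitals mark matches, on either strand, to the letters TTTGGCGC or TTTCCCGC, which are forms of the site read by the cell-cycle factors of the E2F family, and to CCAAT, the box read by NF-Y.
Ezh1: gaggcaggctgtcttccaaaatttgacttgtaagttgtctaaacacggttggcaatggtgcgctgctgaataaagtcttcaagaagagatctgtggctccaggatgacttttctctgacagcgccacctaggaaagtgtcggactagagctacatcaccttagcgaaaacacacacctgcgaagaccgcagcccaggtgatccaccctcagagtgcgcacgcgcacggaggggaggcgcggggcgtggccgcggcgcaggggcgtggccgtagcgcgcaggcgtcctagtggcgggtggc
Ezh2: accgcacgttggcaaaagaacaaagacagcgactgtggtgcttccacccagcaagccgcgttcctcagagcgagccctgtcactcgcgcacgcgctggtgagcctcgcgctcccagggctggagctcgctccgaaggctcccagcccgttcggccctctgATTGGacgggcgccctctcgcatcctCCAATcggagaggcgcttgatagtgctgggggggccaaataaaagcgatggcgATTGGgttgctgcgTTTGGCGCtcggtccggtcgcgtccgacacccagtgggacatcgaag
Suz12: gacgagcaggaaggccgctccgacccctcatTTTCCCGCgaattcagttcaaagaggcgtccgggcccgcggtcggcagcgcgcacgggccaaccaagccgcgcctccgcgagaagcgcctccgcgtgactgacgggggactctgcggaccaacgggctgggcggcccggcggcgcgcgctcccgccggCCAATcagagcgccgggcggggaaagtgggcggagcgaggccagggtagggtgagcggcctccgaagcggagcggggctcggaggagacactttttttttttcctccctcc
Phf19: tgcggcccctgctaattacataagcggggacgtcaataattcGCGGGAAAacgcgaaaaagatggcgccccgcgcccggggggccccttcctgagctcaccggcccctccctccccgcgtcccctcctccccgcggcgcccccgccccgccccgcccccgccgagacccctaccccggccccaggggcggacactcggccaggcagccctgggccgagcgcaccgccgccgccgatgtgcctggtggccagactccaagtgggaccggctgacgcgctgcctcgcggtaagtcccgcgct

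The Ezh1 window held none of these letters. The windows of Eed, Jarid2, Phf1, Mtf2 and Aebp2, which are not shown, also held neither form of the E2F site. The Ezh2 window held TTTGGCGC 4 bases past the start and CCAAT at 3 places, with first bases at -90, -64 and -11. Suz12 held TTTCCCGC at -219 and CCAAT at -61, and Phf19 held TTTCCCGC at -208. Among 32851 windows of the same length, 0.514% held TTTGGCGC, 1.07% held TTTCCCGC and 37.4% held CCAAT. The 9 members matched 13 windows, of which 1, 2 and 7 held these letters, and the cAMP response element TGACGTCA was in 0 of 13 against 1.79% of all windows. GC content of the members' windows ran from 45.7% to 74.3% and their CpG count from 2 to 41, beside medians of 52.7% and 7 over all windows. Matches are letters in these windows only, and no binding was measured.

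Library totals ran from 50339179 to 76939791 counts (median 56630712). Levels are in CPM, read counts scaled to the library total with edgeR's TMM factors, with the SD over mice. Fold changes are log2 values from edgeR's quasi-likelihood test with 9 surrogate variables, and each p-value was adjusted (Benjamini-Hochberg) across the whole set of tested genes. A gene is called where this adjusted p is under 0.05. Summed MSN markers ran from 6100 to 9530 CPM over the libraries, and 5 libraries stood apart in cortical or choroid plexus markers: replicate 1 of Htt+/+ Hdac2 WT, replicate 7 of HttQ111/+ Hdac2 WT, replicates 2 and 6 of Htt+/+ Hdac2 KO and replicate 1 of HttQ111/+ Hdac2 KO. Hdac2 itself had 103 ± 3.42 CPM in Htt+/+ Hdac2 WT (SD, n = 8) and 94.4 ± 2.98 in Htt+/+ Hdac2 KO (n = 9), and 105 ± 4.76 (n = 7) and 95.2 ± 3.45 (n = 11) in the HttQ111/+ groups. The log2 fold change was -0.09 in Htt+/+ mice (adjusted p = 0.0552) and -0.12 in HttQ111/+ mice (adjusted p = 0.00198). The table counts reads over whole gene spans from all striatal cells, and only MSNs lose Hdac2. The paper reports that Cre removes only some Hdac2 exons. Reads of those exons were strongly depleted in Hdac2 KO mice, while reads joining the flanking exons were present. It also reports that HDAC2 protein could not be detected in most striatal cells of these mice. The gene-level count is thus not a measure of the knockout. Hdac1, its closest relative, rose from 6.06 ± 0.513 to 9 ± 0.507 CPM in Htt+/+ mice and from 6.72 ± 0.729 to 9.47 ± 0.722 in HttQ111/+ mice (adjusted p = 7.35e-07 and 5.49e-07).

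Between genes, levels were compared per kb of exon (union of GENCODE M21 exons). Counts were taken over whole gene spans, introns included, so these values also hold intronic reads. Their share in each gene was not measured, and the order below is not one of exonic RNA alone. Aebp2, Phf1 and Ezh1 were the highest, with means over the 35 libraries of 11.3, 10.8 and 10.5 CPM per kb. Mtf2 followed at 7.66, Jarid2 at 5.94, Suz12 at 5.56, Eed at 3.8, Ezh2 at 1.42 and Phf19 at 0.204 CPM per kb. The ranges of the 35 libraries overlapped between Aebp2 and Phf1, Phf1 and Ezh1, Mtf2 and Jarid2, and Jarid2 and Suz12, so these neighbours in the order were not separated. They did not overlap between Ezh1 and Mtf2, Suz12 and Eed, Eed and Ezh2, or Ezh2 and Phf19. Among 17063 tested genes with an exon length, Aebp2 stood at percentile 74.1, Ezh1 at 72.7, Ezh2 at 29.8 and Phf19 at 8.05.

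**Figure D1:**
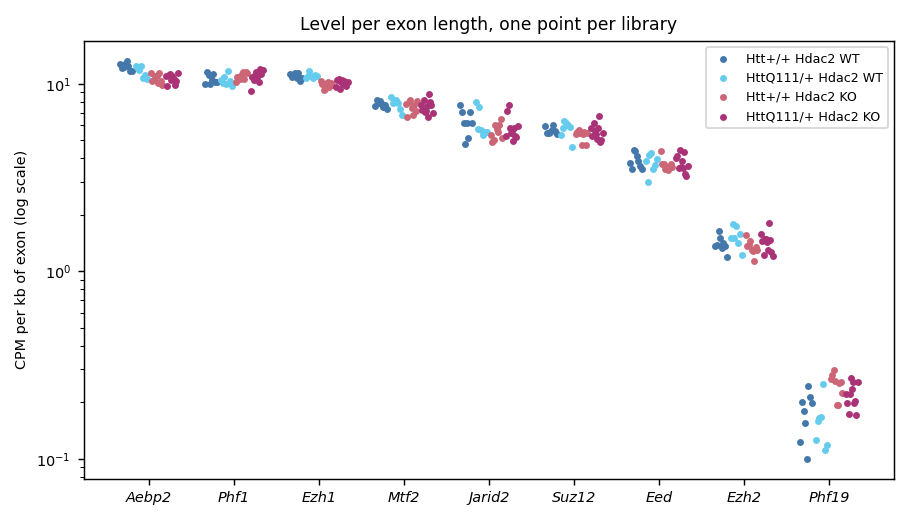
Level of each PRC2 gene in CPM per kb of exon on a log axis, with 1 point per library (n = 35) colored by genotype group. Aebp2, Phf1 and Ezh1 lie between 9.2 and 13.3, Ezh2 between 1.14 and 1.81, and Phf19 between 0.0999 and 0.295 CPM per kb.

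The catalytic pair was unequal in every library. Per kb of exon, the Ezh1 level divided by the Ezh2 level was 7.43 ± 0.814 (SD, n = 35), and the lowest library had a ratio of 5.76. By group the ratio was 7.88 ± 0.657 in Htt+/+ Hdac2 WT (n = 8), 7.28 ± 0.942 in HttQ111/+ Hdac2 WT (n = 7), 7.4 ± 0.668 in Htt+/+ Hdac2 KO (n = 9) and 7.21 ± 0.911 in HttQ111/+ Hdac2 KO (n = 11). The 4 groups overlapped in this ratio. In bulk tissue, a gene expressed in fewer cells and less RNA per cell cannot be told apart, and the share of Ezh2 that comes from non-neuronal cells was not measured. The ratio also includes intronic reads of both genes, whose share was not measured.

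Hdac2 KO libraries were compared with Hdac2 WT libraries separately in each huntingtin genotype. In Htt+/+ mice 2 of the 9 PRC2 genes were called (Ezh1 and Aebp2, both lower), and in HttQ111/+ mice 1 was called (Ezh1, lower). Over all genes tested, 17.8% and 16.5% were called in these comparisons, so the members' shares of 22.2% and 11.1% lay near the background. Averaged over both huntingtin genotypes, 3 of 9 were called (Ezh1 and Aebp2 lower, Phf19 higher) against 25.0% of all genes. In this average the members' absolute log2 fold change had a median of 0.105, beside 0.082 over all genes. In the single comparisons this median was 0.098 beside 0.095 in Htt+/+ mice, and 0.069 beside 0.082 in HttQ111/+ mice. Ezh2, Eed and Suz12, the other parts of the catalytic core, were not called in any of the 3.

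**Figure D2:**
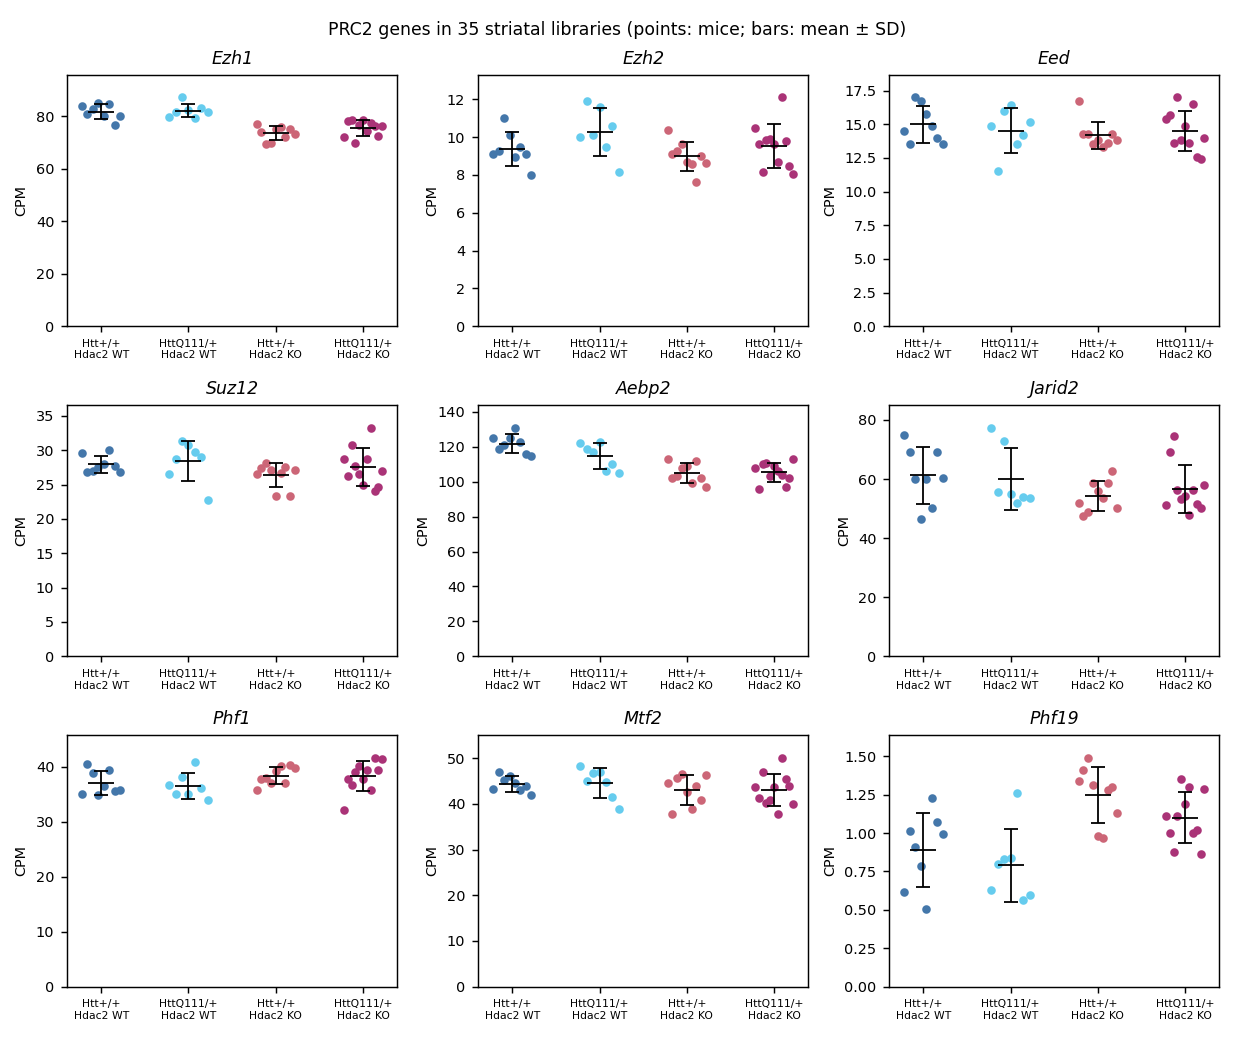
CPM of the 9 PRC2 genes in the 4 genotype groups, with 1 point per mouse and bars for mean ± SD (n = 8, 7, 9 and 11 from left to right). In Ezh1 the Hdac2 KO mice lie at 69.3 to 78.5 CPM and the Hdac2 WT mice at 76.6 to 87.2, while the groups of Ezh2, Eed, Suz12 and Mtf2 lie on top of each other.

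Ezh1 (ENSMUSG00000006920, chromosome 11, 101191115 to 101226442, GRCm38) encodes the catalytic subunit of postmitotic cells. The lowest, median and highest values were 76.6, 81.8 and 84.9 CPM in Htt+/+ Hdac2 WT and 69.3, 74.1 and 77.2 in Htt+/+ Hdac2 KO. In HttQ111/+ mice they were 79.5, 81.8 and 87.2 CPM in Hdac2 WT and 69.8, 76.4 and 78.5 in Hdac2 KO. The Htt+/+ groups overlapped slightly and the HttQ111/+ groups did not, and 15 of 20 Hdac2 KO libraries were below the lowest Hdac2 WT library. Ezh1 was the member without overlap in HttQ111/+ mice, where 1.43% of all genes had none. The log2 fold change was -0.13 ± 0.035 (SE, adjusted p = 0.0118) in Htt+/+ mice and -0.11 ± 0.031 (adjusted p = 0.00968) in HttQ111/+ mice, in edgeR's test. In the average over both, Ezh1 fell by 7.68%, with a log2 fold change of -0.12 (95% interval -0.17 to -0.06, adjusted p = 0.00131), and it was called under all 12 alternative settings and without each of the 35 libraries. Within the single comparisons the call was lost with extraction date in the fit in HttQ111/+ mice (-0.167, adjusted p = 0.0743, against -0.187 and 0.0203 in Htt+/+ mice), in males only (adjusted p = 0.0982 in Htt+/+ and 0.16 in HttQ111/+ mice), without replicate 2 of Htt+/+ Hdac2 WT (0.0513, Htt+/+ mice) and without replicate 6 of HttQ111/+ Hdac2 WT (0.0521, HttQ111/+ mice).

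Aebp2 (ENSMUSG00000030232, chromosome 6, 140622449 to 140677418), the zinc finger subunit of PRC2.2, gave the other lower level. Its lowest, median and highest values were 115, 122 and 131 CPM in Htt+/+ Hdac2 WT and 96.7, 103 and 113 in Htt+/+ Hdac2 KO. The values in HttQ111/+ mice were 105, 117 and 123 CPM in Hdac2 WT and 96, 106 and 113 in Hdac2 KO. The Htt+/+ groups did not overlap, which 4.70% of all genes also showed, and the HttQ111/+ groups did overlap. Aebp2 fell in Htt+/+ mice (log2 fold change -0.13 ± 0.042, adjusted p = 0.033) and had -0.10 ± 0.037 (adjusted p = 0.0578) in HttQ111/+ mice. The average was -0.11 (95% interval -0.17 to -0.05, adjusted p = 0.00862). With extraction date in the fit the average was larger and no longer called (-0.20, adjusted p = 0.0793), while Htt+/+ mice had -0.24 (adjusted p = 0.0404) and HttQ111/+ mice -0.15 (adjusted p = 0.309). Without replicate 1 of HttQ111/+ Hdac2 WT the average was -0.08 (adjusted p = 0.0783) and the HttQ111/+ value -0.05 (adjusted p = 0.456). The Htt+/+ call was lost without the 5 libraries high in cortical or choroid plexus markers (-0.12, adjusted p = 0.111), with no count filter (adjusted p = 0.0504), and on leaving out any of 8 single libraries (adjusted p from 0.0516 to 0.139): replicates 2, 6, 7 and 8 of Htt+/+ Hdac2 WT, 1 and 8 of Htt+/+ Hdac2 KO, 3 of HttQ111/+ Hdac2 WT and 10 of HttQ111/+ Hdac2 KO.

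Jarid2 (ENSMUSG00000038518), which guides PRC2.2 to its targets, was the most variable of the well-expressed members. Its lowest, median and highest values were 46.4, 60.2 and 75 CPM in Htt+/+ Hdac2 WT, 52, 55 and 77.4 in HttQ111/+ Hdac2 WT, 47.4, 53.7 and 62.8 in Htt+/+ Hdac2 KO and 47.9, 54.3 and 74.5 in HttQ111/+ Hdac2 KO. All 4 groups overlapped. The coefficient of variation within a group ran from 9.54% to 17.4%, against 3.14% to 3.92% for Ezh1. The average difference of Hdac2 KO from WT was -0.13 (95% interval -0.27 to 0.02, adjusted p = 0.198), so a change of the size seen in Ezh1 and Aebp2 was not detectable in this gene.

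Phf19 (ENSMUSG00000026873, chromosome 2, 34893757 to 34914026), a Polycomb-like subunit that reads methylated lysine 36 of histone H3, moved the other way at a very low level. Its values rested on 27 to 87 counts in a library. The lowest, median and highest were 0.503, 0.951 and 1.23 CPM in Htt+/+ Hdac2 WT and 0.97, 1.3 and 1.49 in Htt+/+ Hdac2 KO. In HttQ111/+ mice they were 0.564, 0.797 and 1.26 CPM in Hdac2 WT and 0.864, 1.11 and 1.35 in Hdac2 KO. Groups overlapped in both genotypes, though 9 of 20 Hdac2 KO libraries were above the highest Hdac2 WT library and 9 of 15 Hdac2 WT libraries below the lowest Hdac2 KO library. Phf19 rose 1.4-fold in the average (log2 fold change 0.48, 95% interval 0.19 to 0.78, adjusted p = 0.0127). It was not called in the single comparisons, with 0.47 ± 0.193 (adjusted p = 0.0954) in Htt+/+ and 0.49 ± 0.177 (adjusted p = 0.0578) in HttQ111/+ mice, though 5 of 13 alternatives called it in each. With extraction date in the fit the average was 0.35 (adjusted p = 0.449). Its absolute log2 fold change in the reported average was at percentile 95.3 of all genes tested. It was also at percentile 93.8 in the average HttQ111 effect, where Phf19 was not called, so a high percentile is not particular to the Hdac2 comparison.

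The other Polycomb-like subunits were not called. Phf1 (ENSMUSG00000024193) lay at 33.9 to 40.9 CPM in libraries of Hdac2 WT mice and at 32.1 to 41.6 in those of Hdac2 KO mice, and Mtf2 (ENSMUSG00000029267) at 38.8 to 48.2 and 37.9 to 50.1 CPM. Their average log2 fold changes were -0.06 (95% interval -0.13 to 0.01) and -0.04 (-0.11 to 0.03). Phf1 had a higher mean CPM in Hdac2 KO (38.3 ± 2.23, n = 20) than in Hdac2 WT libraries (36.8 ± 2.21, n = 15), and its fitted sign turned positive in 6 of 12 alternative settings. The counted span of Mtf2 overlaps that of Tmed5 over 720 bases of its 41412, with the genes on opposite strands, and whether the counting used strand is not given in the sources used here.

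The rest of the core showed no called difference. Ezh2 (ENSMUSG00000029687, chromosome 6, 47530274 to 47595341), the catalytic subunit of dividing cells, had lowest, median and highest values of 7.97, 9.19 and 11 CPM in Htt+/+ Hdac2 WT, 8.15, 10.1 and 11.9 in HttQ111/+ Hdac2 WT, 7.62, 8.98 and 10.4 in Htt+/+ Hdac2 KO and 8.04, 9.63 and 12.1 in HttQ111/+ Hdac2 KO. All 4 groups overlapped. Its average log2 fold change in Hdac2 KO was -0.03 (95% interval -0.16 to 0.09, adjusted p = 0.758), an interval that includes the value of Ezh1. Eed (ENSMUSG00000030619) had means of 15 ± 1.39, 14.5 ± 1.67, 14.2 ± 1.02 and 14.5 ± 1.52 CPM in the same order (n = 8, 7, 9 and 11). Its fitted average was 0.105 (95% interval 0.02 to 0.20, adjusted p = 0.0819), opposite in sign to its mean CPM, which was 14.8 in Hdac2 WT and 14.4 in Hdac2 KO libraries. Suz12 (ENSMUSG00000017548, chromosome 11, 79993106 to 80032001) had means of 27.9 ± 1.23, 28.4 ± 2.92, 26.4 ± 1.79 and 27.5 ± 2.76 CPM. Its average was 0.03 (95% interval -0.05 to 0.11, adjusted p = 0.62), also opposite in sign to mean CPM (28.2 and 27). Sign changes of this kind, in 5 of 12 settings for Eed and 7 of 12 for Suz12, leave no direction for these genes.

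**Figure D3:**
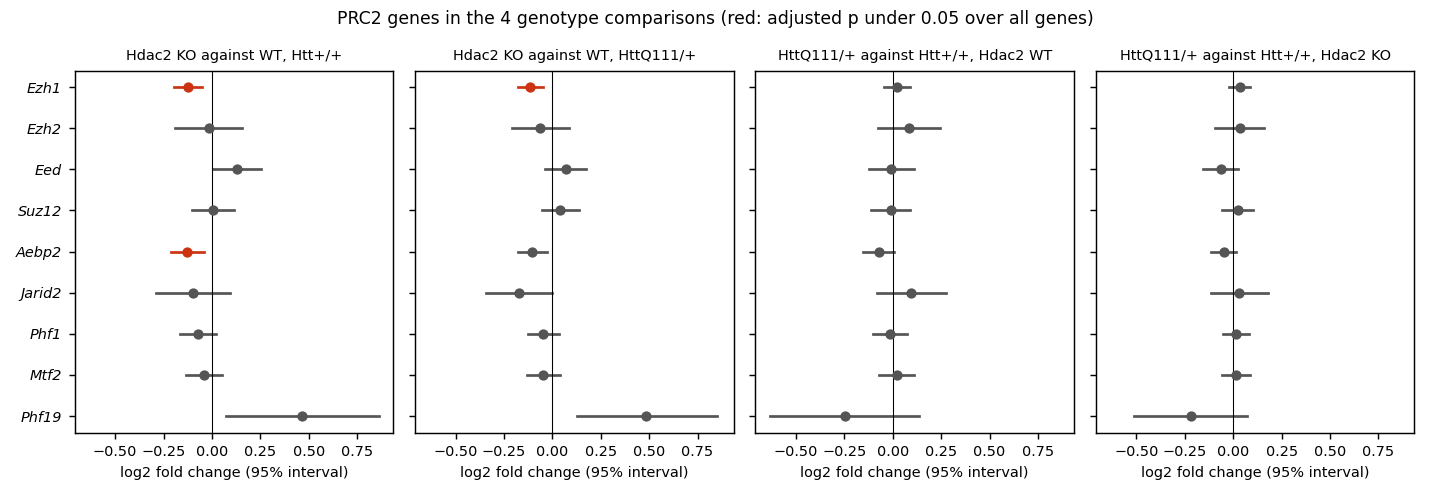
Log2 fold change with its 95% interval for each PRC2 gene in 4 comparisons from edgeR's fit, with called genes in red. Ezh1 is red in both Hdac2 comparisons (-0.13 and -0.11), Aebp2 in that of Htt+/+ mice (-0.13), and no member is red in the HttQ111 comparisons.

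RNA was extracted on 6 dates, and Hdac2 genotype nearly followed them. Hdac2 WT striata were extracted on 24, 25 and 27 May and Hdac2 KO striata on 26 and 31 May and 3 June, except for 1 Hdac2 KO library on each of 25 and 27 May. The Htt+/+ Hdac2 KO striatum of 27 May held 73.3 CPM of Ezh1 against 82.8 to 84.9 in 3 Htt+/+ Hdac2 WT libraries, and 96.7 CPM of Aebp2 against 121 to 125. The HttQ111/+ Hdac2 KO library of 25 May had 72 CPM of Ezh1 against 81.8 to 82.3 in 2 HttQ111/+ Hdac2 WT libraries, while its Aebp2 (108 CPM) lay between theirs (105 and 123). Phf19 in these libraries was 1.13 CPM against 0.784 to 1.23, and 1.11 against 0.599 to 0.839. Ezh1 was thus lower in both same-day sets, Aebp2 in the first and Phf19 higher in the second. The set of 25 May includes libraries named above as standing apart in markers. Its Hdac2 KO library (replicate 1) was high in choroid plexus markers, and replicate 7 of HttQ111/+ Hdac2 WT was high in cortical markers. With date in the fit the average of Ezh1 was called (log2 fold change -0.175, adjusted p = 0.0204), and those of Aebp2 and Phf19 were not. Such a fit rests on these few same-day libraries, so date and Hdac2 genotype cannot be told apart for the 3 genes.

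**Figure D4:**
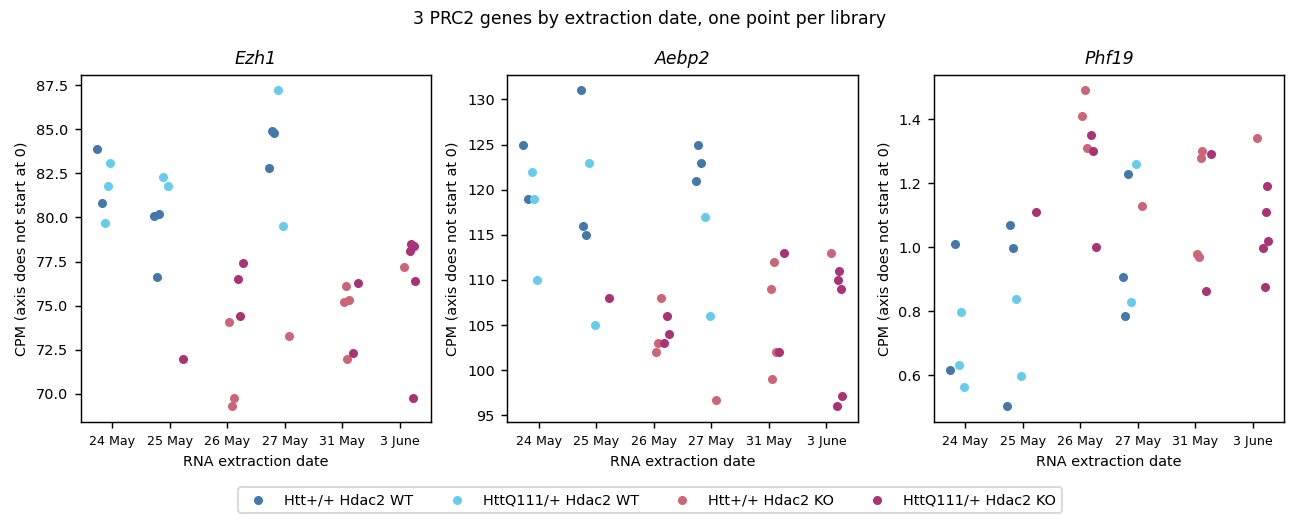
CPM of Ezh1, Aebp2 and Phf19 by RNA extraction date, with 1 point per library colored by genotype group (axes do not start at 0). The single Hdac2 KO libraries of 25 and 27 May have 72 and 73.3 CPM of Ezh1, under every Hdac2 WT library of those days.

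HttQ111/+ libraries were compared with Htt+/+ libraries in each Hdac2 genotype. No PRC2 gene was called in Hdac2 WT mice (0.403% of all genes called) or in Hdac2 KO mice (0.00584%). In edgeR's test 0 of 9 also had an unadjusted p under 0.05 in either comparison, and no alternative setting, DESeq2 included, called a member. The average HttQ111 effect called 0 of 9 against 1.27% of all genes. Aebp2 had the smallest unadjusted p in that average (0.0216, adjusted p = 0.291), with a log2 fold change of -0.06 (95% interval -0.11 to -0.01). Phf19 had the lowest fold change, at -0.23 (95% interval -0.48 to 0.02, adjusted p = 0.44). For Ezh1 the average was 0.03 (95% interval -0.02 to 0.07), and for Ezh2 0.06 (-0.04 to 0.16). In the same average 7 of 10 MSN markers fell, and summed MSN markers had medians of 9060 CPM in Htt+/+ Hdac2 WT and 6540 in HttQ111/+ Hdac2 WT libraries, and of 8780 and 7630 in the Hdac2 KO groups.

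The difference between the Hdac2 effects in HttQ111/+ and Htt+/+ mice was tested as an interaction. It called 0 of 9 members (0.00577% of all genes), and 0 of 9 had an unadjusted p under 0.05. The interaction of Ezh1 was 0.01 (95% interval -0.07 to 0.10, adjusted p = 0.992) and that of Aebp2 0.03 (-0.08 to 0.13, adjusted p = 0.984). HttQ111/+ Hdac2 KO libraries were also compared with Htt+/+ Hdac2 WT libraries, which shares its libraries with the comparisons above. Here 2 of 9 members were called against 21.2% of all genes: Ezh1 at -0.09 ± 0.033 (adjusted p = 0.0437) and Aebp2 at -0.18 ± 0.039 (adjusted p = 0.00133). Aebp2 was called in this comparison under all 13 alternatives, and Ezh1 lost its call with date in the fit (adjusted p = 0.058), in males only (0.44), with no count filter (0.107) and without the 5 libraries high in cortical or choroid plexus markers (0.102). Males differed from females in 0 of 9 members (0.0807% of all genes called), and Mtf2 had the smallest unadjusted p (0.0245, adjusted p = 0.524), with 44.5 ± 2.95 CPM in males (n = 22) and 42.2 ± 2.7 in females (n = 13).

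**Figure D5:**
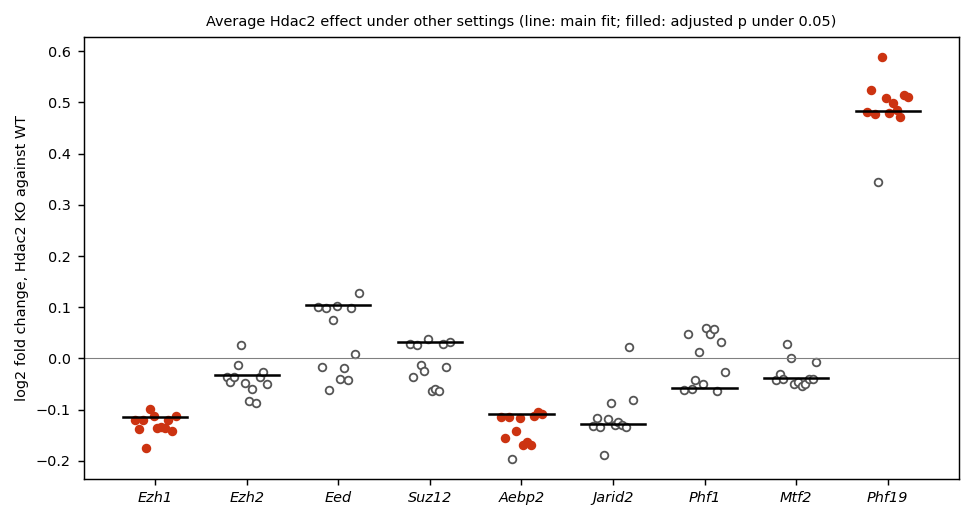
Average log2 fold change of Hdac2 KO against Hdac2 WT for each PRC2 gene in the reported fit (black line) and under 12 alternative settings (points, filled where the adjusted p is under 0.05). Ezh1 is filled under all 12 and Aebp2 and Phf19 under 11, while the points of Eed, Suz12 and Phf1 lie on both sides of 0.

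Levels of the members across libraries were related only loosely. Over the 35 libraries, Pearson's r of log2(CPM + 0.5) between pairs of members had a median of 0.16 over 36 pairs and ran from -0.6 (Ezh1 and Phf19) to 0.58 (Ezh1 and Aebp2). With each group's mean removed these became -0.17 and 0.02, and the range over pairs was -0.3 to 0.43. The highest within groups were Ezh2 with Mtf2 (0.43), Ezh2 with Eed (0.40) and Suz12 with Mtf2 (0.36). These r share library depth and dissection among their points and are given as descriptions. Among 13721 genes with a mean of at least 1 on the log2 CPM scale, the 3 most like Ezh1 were Cadm3, Poldip3 and Adam22 (r = 0.86, 0.83 and 0.81, and 0.54, 0.56 and 0.45 within groups). Most like Ezh2 were Hnrnph2, Ercc6l2 and Zfp81 (0.73, 0.72 and 0.70). For Eed they were Zfp655, Spty2d1 and Mynn (0.75, 0.75 and 0.74), and for Suz12 Hspa13, Cdc73 and Eif3a (0.79, 0.78 and 0.77).

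Other genes of the Polycomb system were read from lists of PRC2 partners, PRC1 subunits, PR-DUB subunits and H3K27 demethylases. Of 34 rows tested, 9 were called in Hdac2 KO against WT in Htt+/+ mice (7 higher, 2 lower), 5 in HttQ111/+ mice (4 higher, 1 lower) and 10 in the average (7 higher, 3 lower). These shares of 26.5%, 14.7% and 29.4% stood beside 17.8%, 16.5% and 25.0% of all genes, so the genes named next are single genes and not a result about the Polycomb system. The median log2 fold change in the average was -0.001, beside 0.002 over all genes. None was called for HttQ111 in Hdac2 WT mice, in Hdac2 KO mice or in the average. The partners Rbbp4, Rbbp7, Lcor and E130012A19Rik, of which the first pair are histone-binding subunits of PRC2, were 0 of 4 called.

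PRC1 reads the PRC2 mark and ubiquitinates histone H2A, and its subunits made up most of the rows read. The genes called in both huntingtin genotypes were PRC1 subunits: Cbx7 (lower), Cbx8, Phc1, Rnf2 and Pcgf2 (higher). The share of all genes called in both was not computed. Cbx7, a chromodomain subunit that reads methylated lysine 27, had 77.5 ± 1.97 CPM in Htt+/+ Hdac2 WT (range 75.1 to 80.4) and 67.6 ± 2.76 in Htt+/+ Hdac2 KO (range 62.7 to 71.2). These groups did not overlap, which 4.70% of all genes also showed. The HttQ111/+ groups did overlap (69.6 to 76.2 CPM in Hdac2 WT and 60.1 to 72.3 in Hdac2 KO). Cbx7 fell by 0.24 on the log2 scale in Htt+/+ mice (adjusted p = 7.74e-06) and by 0.18 in HttQ111/+ mice (adjusted p = 0.000121). Cbx8, an alternative reader of the same mark, had 8.75 ± 1.1 and 9.49 ± 0.669 CPM in the same Htt+/+ groups and log2 fold changes of 0.30 (adjusted p = 0.00934) and 0.23 (0.0219). Phc1, a polyhomeotic subunit that clusters PRC1, had 53.2 ± 2.81 CPM in Htt+/+ Hdac2 WT and 63.8 ± 2.35 in Htt+/+ Hdac2 KO, with 0.18 (adjusted p = 0.00774) and 0.19 (0.00217). Cbx7 and Phc1 were called in the average under all 12 alternatives. Rnf2, the ubiquitin ligase, had 0.19 (adjusted p = 0.011) and 0.14 (0.0263), and Pcgf2, its partner in canonical PRC1, had 0.20 (0.0091) and 0.15 (0.0235). In the average, Rnf2 was called under 11 of 12 alternatives, Pcgf2 under 9 and Cbx8 under 7, and without surrogate variables Cbx8 had 0.11 (adjusted p = 0.17). Pcgf2 turned to -0.08 (adjusted p = 0.842) with extraction date in the fit.

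The remaining called genes passed in the average of both genotypes. Bap1, the deubiquitinase of PR-DUB, fell by 0.10 on the log2 scale (adjusted p = 0.00188), and Bcor, a scaffold of a variant PRC1, fell by 0.15 (adjusted p = 0.0138). Its relative Bcorl1 rose by 0.12 (adjusted p = 0.0228). The H3K27 demethylases Kdm6a and Kdm6b had 0.12 (adjusted p = 0.0175) and 0.17 (adjusted p = 0.048). Mean CPM of Kdm6a was 49.6 ± 8.39 in Htt+/+ Hdac2 WT and 54.8 ± 10 in Htt+/+ Hdac2 KO, and 51.4 ± 11 and 50.4 ± 12 in the HttQ111/+ groups. Kdm6a was also lower in males than in females (log2 fold change -0.52, adjusted p = 1.26e-12 in edgeR's test with group and sex). The groups held 5 males and 3 females, 5 and 4, 4 and 3, and 8 and 3 in this order, so these means and SDs also carry sex. Mean CPM of Kdm6b was 26.4 ± 4.69 and 26.4 ± 3.17 in the Htt+/+ groups, and the Kdm6b difference was called under 1 of 12 alternatives. Kdm6a and Bcorl1 were called under 5 of 12, Bcor under 8 and Bap1 under 9.

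The classical targets that PRC2 silences stayed at or near 0 counts. Of 40 Hox and Cdkn2 rows in the table, 23 had 0 counts in all 35 libraries, 34 had at most 5 counts in every library, and 1 passed the count filter. That gene, Cdkn2b, a cyclin-dependent kinase inhibitor, had 2 to 26 counts in Htt+/+ Hdac2 WT, 8 to 17 in HttQ111/+ Hdac2 WT, 9 to 28 in Htt+/+ Hdac2 KO and 6 to 41 in HttQ111/+ Hdac2 KO libraries. All groups overlapped. Its average log2 fold change in Hdac2 KO was 0.46 ± 0.287 (adjusted p = 0.272) and in HttQ111 -0.03 ± 0.241 (adjusted p = 0.972), so no difference was detectable at this depth.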

How the data were processed

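The 35 libraries of the table were made from total RNA of whole striatum with a stranded mRNA kit (Illumina TruSeq). The paper reports that a further library, from a male Htt+/+ Hdac2 WT mouse, was left out as an outlier with signs of DNA contamination. The authors aligned reads to GRCm38 with the GSNAP aligner and deposited raw counts of uniquely aligned reads per gene, taken with bedtools over whole gene spans of Ensembl annotation, introns included. Whether counting used strand is not given in the sources used here. Intronic reads are thus part of each count. Each library is a separate mouse. All columns of the table were mapped to samples by their labels.

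Of the 39109 rows, 92 ERCC controls, 6152 genes no longer than 250 nt and both mitochondrial rRNA genes (2 rows) were dropped, and a gene was tested where each library of any compared group held 6 counts or more. Counts were fitted in R 4.3.3 with edgeR 4.0.16 (TMM, quasi-likelihood F test), with genotype group and 9 surrogate variables from sva 3.50.0, and adjusted by Benjamini-Hochberg over all genes tested. The sex comparison used group and sex. The fit was tested on simulated data. Members with 27 or more counts in every library were all kept. CPM used TMM-scaled totals (50339179 to 76939791 counts), and r used log2(CPM + 0.5). Alternatives replaced the surrogate variables, libraries, size factors, filter or test (DESeq2 1.42.0). Replicate numbers only name mice. Deviations of same-numbered mice from their group means had a median correlation of 0.0625 over 45 pairs, against -0.00747 over 410 other pairs.

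The members and gene lists were chosen with earlier results of these data known. Named genes are all 9 members, Hdac2, Hdac1, from each list up to 5 genes with the smallest adjusted p under 0.05 in the average Hdac2 or HttQ111 effect and those called in both Hdac2 comparisons, and the 3 genes most like Ezh1, Ezh2, Eed and Suz12. Start regions are from RefSeq (GRCm38.p6).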

Additional observations from a re-analysis of the deposited data

Results flagged for a closer look

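In 27 sets of values (9 genes in the 3 groups of up to 10 mice), 2 had a mouse far from the others, and chance alone flags about 1 in 20 sets. Eed was 16.7 CPM in replicate 1 of Htt+/+ Hdac2 KO, and the next highest mouse of the group had 14.3 CPM. Without that library the log2 fold change of Eed in Htt+/+ mice was 0.09 (adjusted p = 0.38). Phf19 was 1.26 CPM in replicate 5 of HttQ111/+ Hdac2 WT, against 0.839 CPM in the next mouse. Without that library Phf19 was called in HttQ111/+ mice (log2 fold change 0.57, adjusted p = 0.0468 in edgeR's test).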

How the results depend on the processing

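Each genotype comparison was repeated under 12 or 13 alternatives and the sex comparison under 3. In all, 910 of 936 values of the members stayed on their side of the threshold (11 lost a call and 15 gained 1). No called member changed sign, while 156 values not called in either fit did, where a value that rounded to 0 was also counted as a change. The cause of these shifts was not tested.

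The count of called members in Htt+/+ mice (2 as reported) was 1 in males only, with no count filter, and without the libraries high in cortical or choroid plexus markers (the last chosen after seeing the data), 3 with ID series, sex or the replicate block in place of the surrogate variables, with no surrogate variables and with the compared groups alone, and 1 to 2 on leaving out 1 library. In HttQ111/+ mice (1 as reported) it was 3 with the DESeq2 Wald test, with ID series or sex in place of the surrogate variables, with no surrogate variables and with the compared groups alone, 0 with extraction date and in males only, and 1 to 3 on leaving out 1 library. In the average it was 3 as reported, 1 with extraction date, and 2 to 3 on leaving out 1 library. For HttQ111/+ Hdac2 KO against Htt+/+ Hdac2 WT it was 2 as reported and 1 with extraction date, in males only, with no count filter and without the marker-high libraries. Over all genes, the average Hdac2 effect called 802 with extraction date and 5568 with sex in the fit, against 4341 as reported.

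With a replicate block in place of the surrogate variables the average had Ezh1 at -0.14 (adjusted p = 4.74e-05), Aebp2 at -0.16 (1.5e-05) and Phf19 at 0.50 (0.00155), and Phf19 gained a call in Htt+/+ mice (adjusted p = 0.0237). The block changed no other call of a member.

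Phf19 was also called without replicate 2 of Htt+/+ Hdac2 WT in Htt+/+ mice (log2 fold change 0.76, adjusted p = 0.0321, against 0.47 as reported). In HttQ111/+ mice Phf19 gained a call without any of 5 libraries (adjusted p from 0.0276 to 0.0468) and Aebp2 without any of 7 (0.0299 to 0.0485).

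Outside PRC2, signs turned with extraction date for Bcorl1 (-0.021 in the average, -0.039 in Htt+/+ mice), Pcgf2 (-0.081 in the average, -0.009 in Htt+/+ and -0.156 in HttQ111/+ mice) and Kdm6b (-0.065 in the average, -0.026 in Htt+/+ mice). Kdm6b also turned without ID series A (-0.015 in the average, -0.035 in Htt+/+ mice, and -0.023 for HttQ111/+ Hdac2 KO against Htt+/+ Hdac2 WT) and with the replicate block (-0.007, Htt+/+ mice). With no surrogate variables Kdm6b was at 0.000 in Htt+/+ mice.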

Other observations

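Several members differed by the letter series of the mouse identifiers, which the labels carry and which partly follows genotype and repeat length, so these values are given without a test. Jarid2 had 65.5 ± 10.9 CPM in the 8 mice of series A, 55.5 ± 7.46 in the 16 mice of series V and 55.3 ± 4.17 in the 11 mice of series Z. Suz12 was 28 ± 1.7, 28.5 ± 2.05 and 25.7 ± 2.09 CPM, and Ezh2 was 9.86 ± 1.11, 9.87 ± 0.944 and 8.68 ± 0.867 CPM in the same order. Eed was 14.5 ± 1.62, 15.2 ± 1.33 and 13.7 ± 0.792 CPM. Ezh1 varied less, with 79 ± 3.56, 78 ± 5.6 and 76.6 ± 3.69 CPM. As a share of each gene's variance on the log2 scale over the 35 libraries, Hdac2 genotype took an R2 of 0.627 in Ezh1, 0.53 in Aebp2 and 0.392 in Phf19, and between 0.0208 and 0.105 in the other 6 members. Extraction date, which nearly follows Hdac2 genotype and has 6 levels, took 0.515, 0.396 and 0.505 in Ezh1, Aebp2 and Phf19, and between 0.172 and 0.476 in the other 6.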
